A study of Mus musculus with 19 samples.

Results

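The cells described here are orexin neurons of the mouse lateral hypothalamic area (LHA) whose leading marker genes are Pth2, Hspb1, S100a11, Synm and Cbln2, called the Pth2 type below. Wells labelled LHA with at least 1000 detected genes and at least 1% of their counts in Hcrt were taken as orexin neurons, which gave 1068 cells of 1612 LHA wells. Each cell was scored on 4 panels of 5 genes as the mean z-score of log1p counts per 10000, and it was assigned to the panel with the highest score. The Pth2 panel was highest in 258 cells (24.2% of orexin neurons, exact 95% interval 21.6 to 26.8%). The z-scores were taken within these cells and every cell was given a panel, so this share depends in part on the rule. The other panels gave 283 cells of the Met type (Met, Sema3e, Pde3a, Chst8, Lmo2), 265 of the Prkch type (Prkch, Cxcl14, Car8, Col18a1, Ednrb) and 262 of the Gpc3 type (Gpc3, Thbs2, Lgals3, Cd44, Fbxl21). The donors were 7 males of the genotype Agrp-IRES-Cre x Ai9, 6 to 8 weeks old, in which Cre expressed from the Agrp gene switches on tdTomato in AGRP neurons. The red axons of those neurons outlined the area, and cell bodies without fluorescence were picked by hand from slices into 19 plates of 96 wells. The study has a single group, no treatment and no control animals, so the comparison is between types of cells from the same plates. Libraries were made with Smart-SCRB, in which each plate is a library and read 1 holds the barcode of the well with a random tag for each molecule (UMI). Counts are called UMIs here for that reason.

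Hcrt encodes the precursor of the orexins, also called hypocretins, peptides that hold the brain awake and drive reward seeking, and orexin neurons are found only in and around the LHA. They release glutamate and dynorphin together with orexin. Pth2 encodes a peptide of the parathyroid hormone family that acts on the receptor Pth2r, and Nts encodes neurotensin, a peptide that acts on Ntsr1 and Ntsr2 and that is best known in the LHA from neurons without orexin. Hspb1 is a small heat shock protein that keeps other proteins from aggregating, S100a11 is a calcium-binding S100 protein, Synm is the intermediate filament protein synemin, and Cbln2 is a secreted cerebellin that organises synapses by binding neurexins.

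Promoter sequences are printed for 4 genes that were high in sums over these cells, 3 of the panel and Nts, which the panel did not use. They are from RefSeq on GRCm38.p6, run 5′ to 3′ on the gene's strand and hold the 250 bases before the RefSeq start, without bases that GENCODE M21 counts as part of the gene. Capitals mark matches to AP-1 (TGANTCA) or to a heat shock element (GAANNTTC).
Pth2: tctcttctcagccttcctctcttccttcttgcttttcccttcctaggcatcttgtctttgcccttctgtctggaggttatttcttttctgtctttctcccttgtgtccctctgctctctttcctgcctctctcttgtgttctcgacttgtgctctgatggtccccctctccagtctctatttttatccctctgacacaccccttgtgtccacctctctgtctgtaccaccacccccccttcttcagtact
Hspb1: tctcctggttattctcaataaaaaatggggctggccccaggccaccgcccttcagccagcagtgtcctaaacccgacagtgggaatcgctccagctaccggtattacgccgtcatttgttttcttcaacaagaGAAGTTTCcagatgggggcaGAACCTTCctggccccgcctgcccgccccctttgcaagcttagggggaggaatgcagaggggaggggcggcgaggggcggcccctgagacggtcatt
S100a11: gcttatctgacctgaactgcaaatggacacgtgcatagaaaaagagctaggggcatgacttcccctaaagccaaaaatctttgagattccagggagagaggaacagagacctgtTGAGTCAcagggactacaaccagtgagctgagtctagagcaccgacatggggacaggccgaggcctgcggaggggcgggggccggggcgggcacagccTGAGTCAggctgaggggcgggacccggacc
Nts: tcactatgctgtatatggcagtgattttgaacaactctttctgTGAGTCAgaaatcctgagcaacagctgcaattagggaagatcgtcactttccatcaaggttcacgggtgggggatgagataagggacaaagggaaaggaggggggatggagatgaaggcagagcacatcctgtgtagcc
The 250 bases of Pth2 lie at chr7:45180745-45180994 on the plus strand and hold neither motif. Those of Hspb1 lie at chr5:135887669-135887918 on the plus strand and hold 2 heat shock matches, GAAGTTTC ending 110 bases and GAACCTTC ending 90 bases before the start. The 242 bases of S100a11 lie at chr3:93520246-93520487 on the plus strand and hold 2 AP-1 matches, at 136 to 130 and at 38 to 32 bases before the start. The 182 bases of Nts lie at chr10:102490487-102490668 on the minus strand and hold 1 AP-1 match, at 207 to 201 bases before the start. Both motifs read the same on both strands, and no match of the cyclic AMP element TGACGTCA was found in the 4 sequences. Of 27025 promoters in the table, 6.87% held the AP-1 letters, 6.78% the heat shock letters and 1.62% the cyclic AMP element, so the matches are a description only.

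By the rule, every member had its highest score on the Pth2 panel, and in a part of the members the lead was small. Members scored between -0.43 and 4.47 with a median of 0.79, and 17 of the 258 had a negative score that was still their highest. The next panel was that of the Gpc3 type in 150 members, of the Prkch type in 88 and of the Met type in 20. The lead over the next panel was under 0.25 in 35 members and under 0.5 in 83. The 3 members nearest to the limit led by 0.0124, 0.0179 and 0.0394, and the 3 nearest cells outside it had leads of -0.000244, -0.00195 and -0.00304. At least 3 of the 5 panel genes had a UMI in 179 members (69.4%), against 35 cells of the other types (4.32%). All 5 were found in 20 members. These genes assigned the cells, so such counts follow from the rule, and the cells differ in depth. In 3 members, 0 panel genes were found, so these cells were assigned by what they lacked of the other panels.

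The 5 panel genes chose the cells, so their levels are a description with no test. Levels are in CPM, UMIs summed over the cells of a type on a plate and scaled to a common total, with SD over 19 plates. Pth2 (ENSMUSG00000038300, chr7:45180995-45181838, plus strand) had 21.4 CPM at the lowest, 57.9 at the median and 144 CPM at the highest over plates in the Pth2 type, against at most 25.1 CPM in any sum of the Gpc3 type, the next highest. Its mean was 65.3 ± 33.8 CPM in the Pth2 type, 8.35 CPM in the Gpc3 type, 2.68 CPM in the Prkch type and 2.48 CPM in the Met type. Every plate was higher in the Pth2 type than in each other type, and the lowest plate of the Pth2 type overlapped only the top of the Gpc3 range. A Pth2 UMI was found in 45.3% of members, against 8.15% of other orexin neurons. With each cell thinned to 21000 UMIs, so that depth is equal, the shares were 35.7% and 5.49%, and outside the Hcrt gate 0.429% of LHA cells had a Pth2 UMI before thinning and 0 of 317 after it, which allows a share of cells with a UMI of up to 0.946% by counting error alone.

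The other 4 panel genes were found in more cells of the type than Pth2 was, except Hspb1. Cbln2 (chr18:86711110-86718283, plus strand) had 58.5, 80.1 and 143 CPM at the lowest, median and highest plate in the Pth2 type, against a highest mean of the other types of 17.3 CPM, with no overlap. S100a11 (chr3:93520488-93526287, plus strand) had 20.5, 41.1 and 68.0 CPM in the Pth2 type, against at most 8.64 CPM in the mean of the other types, again with no overlap. Synm (chr7:67730160-67759742, minus strand) had 11.8, 36.8 and 65.4 CPM in the Pth2 type, against at most 12.5 CPM in the mean of the other types, so the lowest plate overlapped. Hspb1 (chr5:135887919-135889563, plus strand) was the most variable, with 3.74, 26.0 and 78.4 CPM in the Pth2 type against at most 7.19 CPM in the mean of the other types. All 5 genes were higher in the Pth2 type than in that mean on 19 of 19 plates. Each was next highest in the Gpc3 type, with means of 13.3 CPM for Cbln2, 10.8 CPM for S100a11, 14.6 CPM for Synm and 4.65 CPM for Hspb1. At 21000 UMIs per cell, Cbln2 was found in 64.3% of members against 11.8% of other orexin neurons, S100a11 in 48.0% against 8.92%, Synm in 41.8% against 9.05% and Hspb1 in 23.0% against 2.19%. In LHA cells outside the Hcrt gate the shares at that depth were 35.3% for Cbln2, 5.99% for S100a11, 15.8% for Synm and 4.42% for Hspb1. Unlike Pth2, Cbln2 was thus common there, with a pooled level of 74.5 CPM against 81.9 CPM in members. Hspb1 was the only panel gene that did not pass the filter on low counts of the test, and Synm overlaps an exon of Ttc23 on the other strand.

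**Figure D1:**
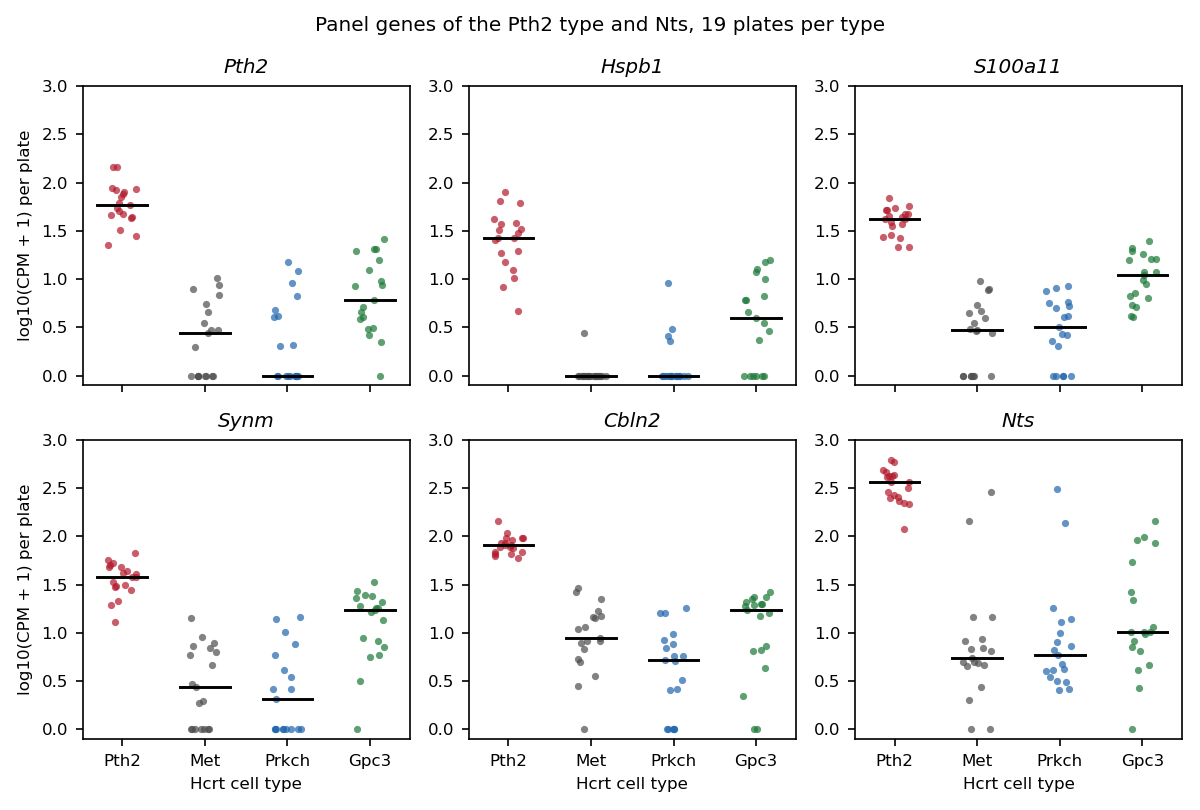
Level of the 5 panel genes of the Pth2 type and of Nts, as log10(CPM + 1), in each of 19 plates (points) for the 4 types of orexin neuron, with the median as a bar. The Pth2 type has the highest median in every panel, with Pth2 at a median of 57.9 CPM and Nts at 360 CPM, and the Gpc3 type comes next for the 5 panel genes.

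The type made up a similar part of the orexin neurons of most plates. Its share was 24.1 ± 7.02% (SD, n = 19 plates), from 15.6% to 43.2%, with 5 to 25 members per plate. The highest share was on replicate 18, at 43.2% with an exact 95% interval of 27.1 to 60.5%, and the lowest on replicate 9, at 15.6% with an interval of 5.28 to 32.8%. Plates fall into 4 well-barcode sets, and the pooled share was 26.7% in Q5, 23.2% in Q6, 19.6% in Q7 and 26.4% in Q8. Cells were chosen by hand, so the share is that of picked cells. The rule also gave every orexin neuron to a type by scaled scores. The share therefore depends on that rule too and does not measure abundance in the tissue. It was 31.2% where cells with a lead under 0.5 were left out of all 4 types.

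**Figure D2:**
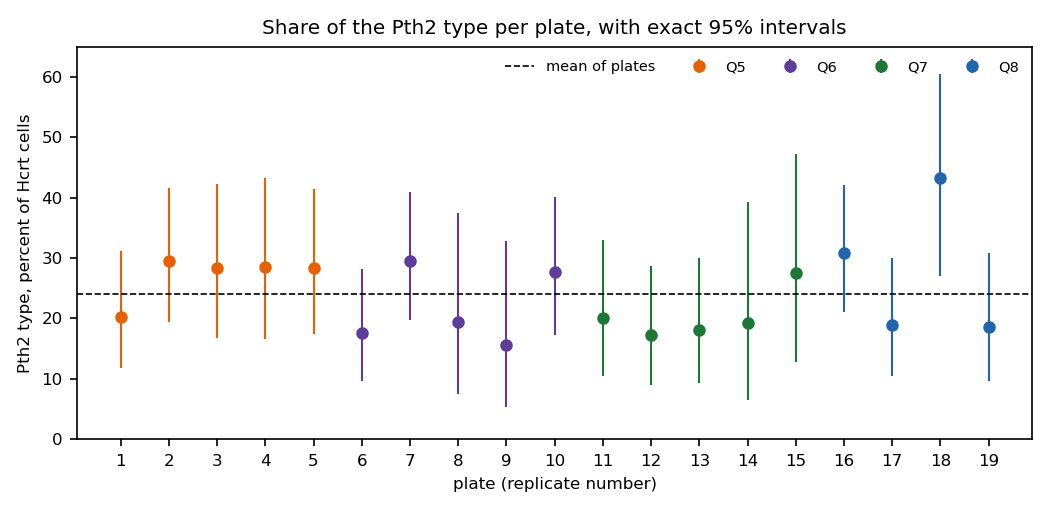
Share of the Pth2 type among the orexin neurons of each plate, in percent, with exact 95% binomial intervals (counting error only) and coloured by well-barcode set. The dashed line is the mean of 24.1%, and replicate 18 at 43.2% is the only plate whose interval does not reach it.

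Nts, which the rule did not use, had the largest log2 fold change of the 98 named genes. It was checked because the label of the type names it, and the panels came from these same cells. Its p-value is therefore no independent evidence for the type. Nts (ENSMUSG00000019890, chr10:102481756-102490486, minus strand) had 118 CPM at the lowest, 360 at the median and 612 CPM at the highest plate in the Pth2 type, against 2.95, 9.55 and 106.2 CPM in the mean of the other types. The plates did not overlap that mean, and all 19 were above it. On replicate 3 the Pth2 type had 118 CPM against 135 CPM in the Prkch type, and on replicate 12 it had 229.9 CPM against 286 CPM in the Met type. On 17 of 19 plates it was above every other type. The log2 fold change was 4.23 ± 0.38 (SE; adjusted p = 2.29e-13, edgeR quasi-likelihood test with Benjamini-Hochberg adjustment over 7695 genes), and it was 4.57 against the Met type, 4.29 against the Prkch type and 3.84 against the Gpc3 type. At equal depth, Nts was found in 66.0% of members against 9.05% of other orexin neurons. Over all members the pooled level was 375 CPM, against 1756 CPM in LHA cells outside the Hcrt gate, of which 52.4% had a Nts UMI at equal depth. Nts also appeared in 10 of the wells without a cell, which held 710 Nts UMIs together, and the part of such RNA in the members' counts was not tested.

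Pth2 and Nts were found together in a part of the members. Of 244 members with at least 21000 UMIs, 56 had both at that depth, 31 had Pth2 without Nts and 52 had neither, and the rest had Nts alone. A count of 0 at this depth does not show that a cell lacks the gene, and Pth2 was among the genes that chose the members. Members held 6342 Nts UMIs, and the 26 cells with most Nts, at 68 to 321 UMIs each, held 43.7% of them. Both peptides stood out in the sums over cells, while 23.0% of thinned members showed both. Pth2 was found in 34.8% of thinned members with a Nts UMI and in 37.3% of those without. Finding Nts in a member thus did not go with finding Pth2 more often, and the difference was not tested.

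Cells of the Pth2 type yielded more UMIs than the others. The plate median was 71829 ± 28822 UMIs per cell in the Pth2 type, against 48359 ± 19121 in the other 3 types together, and it was higher on 19 of 19 plates (difference 23470, two-sided sign-flip permutation test, p = 1e-05, the smallest that 100000 permutations can give). The difference was 25057 against the Met type, 26370 against the Prkch type and 16355 against the Gpc3 type, each on 19 of 19 plates. ERCC spike-ins are synthetic RNAs added in a fixed amount to each well. Members had 47.2 ± 7.46 UMIs per ERCC count against 32.3 ± 5.88 in the others, again higher on 19 of 19 plates (permutation p = 1e-05), and the ERCC share was 2.13% against 3.10%. At 21000 UMIs per cell, members had a median of 4241 ± 126 genes against 4079 ± 149, higher on 19 of 19 plates (permutation p = 1e-05). The mitochondrial share was 2.64 ± 0.31% against 2.36 ± 0.34%, higher on 17 of 19 plates (permutation p = 0.00025). All 24 such comparisons were adjusted together, and these adjusted values are at most 0.00033. Since panel scores can move with depth, types were also assigned after thinning: 221 of the 244 thinned members stayed in the type, and the difference was then 20777 UMIs.

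Hcrt differed little between the Pth2 type and the others. It took 13.8 ± 2.11% of UMIs in members against 13.5 ± 1.73% in the others, and it was higher on 13 of 19 plates (permutation p = 0.1317, adjusted p = 0.137). Against the Prkch type alone, at 13.4 ± 1.76%, the difference of 0.405 percentage points passed, with 14 of 19 plates higher (permutation p = 0.03665, adjusted p = 0.0419). Against the Met and Gpc3 types it did not pass (permutation tests, adjusted p = 0.0879 and 0.854). The difference from the other types together passed 0.05 where cells with a lead under 0.5 were left out (0.681 percentage points, permutation p = 0.00309) and with types assigned after thinning (0.429, permutation p = 0.01459). It also did so without replicate 15 (0.387, permutation p = 0.04669) and without replicate 18 (0.392, permutation p = 0.04312). In sums per plate, Hcrt (chr11:100761069-100762931, minus strand) had 133951 ± 21223 CPM in the Pth2 type against 133004 ± 17244 CPM in the mean of the others, a log2 fold change of 0.03 ± 0.03 (edgeR adjusted p = 0.611).

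**Figure D3:**
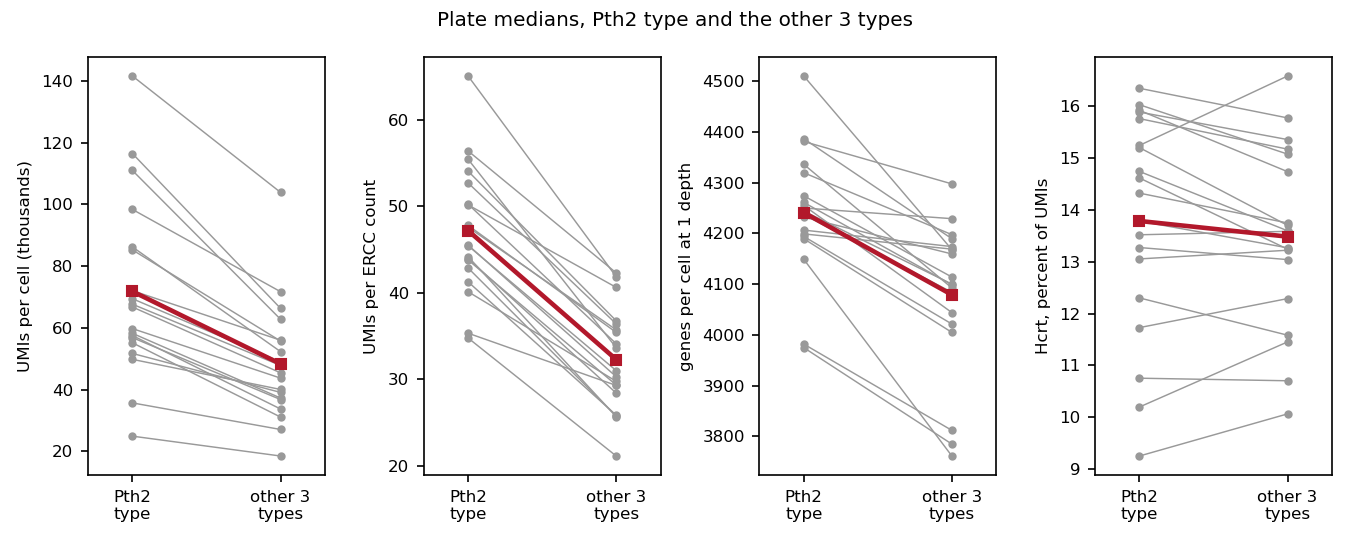
Plate medians of UMIs per cell, UMIs per ERCC count, genes per cell at 21000 UMIs and Hcrt percent of UMIs, with a line per plate joining the Pth2 type (left) to the other 3 types (right) and the mean in red. The first 3 are higher in the Pth2 type on 19 of 19 plates, and Hcrt on 13 of 19.

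Genes outside the 4 panels were compared in UMIs summed per plate and type, with the plate as a block. Against the mean of the other 3 types, 660 of 7695 genes were higher (8.58%) and 516 lower (6.71%) in the Pth2 type at an adjusted p under 0.05, and the median log2 fold change of all genes was 0.01. Against the Met type 608 were higher (7.9%) and 520 lower (6.76%), against the Prkch type 684 (8.89%) and 596 (7.75%), and against the Gpc3 type 195 (2.53%) and 194 (2.52%). The contrasts share the sums of the Pth2 type. Numbers of plates higher or lower are against the mean of the other types unless every other type is named. Higher than each of the other types were 125 genes (1.62%), and lower than each were 137 (1.78%). The panels were drawn up from these same cells, so a p-value here is no independent evidence for the type. It tests a mean difference against the modelled spread of the sums, and a small one can come with plates that differ in direction. Members have more UMIs, and with types assigned at equal depth 326 genes were higher and 276 lower against the mean.

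Among the genes higher than each other type by at least 1 on the log2 scale and above 20 CPM were 9, and Mgst3 was the steadiest of them. Mgst3 (chr1:167371966-167393841, minus strand), a microsomal glutathione transferase, had 106.8, 191 and 255 CPM at the lowest, median and highest plate in the Pth2 type against 39.8, 50.3 and 102.9 CPM in the mean of the others. The plates did not overlap, and 19 of 19 were higher than every other type (log2 fold change 1.71 ± 0.11, edgeR adjusted p = 1.28e-24). Gpr83 (chr9:14860210-14870789, plus strand), a G protein-coupled receptor found in the hypothalamus, had 95.8, 172 and 316 CPM against 31.6, 65.5 and 116.9 CPM. Its ranges overlapped, while 19 of 19 plates were higher in the Pth2 type (1.58 ± 0.15, adjusted p = 4.74e-13).

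The other genes of this kind were lower in level. Pla2g7, a secreted phospholipase that acts on platelet-activating factor, averaged 28.6 ± 12.7 CPM in the Pth2 type against 9.14 ± 3.82 CPM (log2 fold change 1.75 ± 0.24). Pcdh11x, a protocadherin of the X chromosome, averaged 62.6 ± 30.6 CPM against 22.8 ± 8.91 CPM (1.54 ± 0.19). Cdkn1a, the inhibitor of cyclin-dependent kinases, averaged 32.2 ± 17.7 CPM against 13.4 ± 9.75 CPM, with 18 of 19 plates higher. Hbegf, a growth factor that binds the EGF receptor, averaged 37.1 ± 16.1 CPM against 16.5 ± 7.01 CPM, with 17 of 19 plates higher. Cacna1h, a T-type calcium channel that opens near rest, averaged 32.3 ± 9.73 CPM against 15.6 ± 4.59 CPM, with 19 of 19 plates higher. The edgeR adjusted p of these 5 ran to at most 3.74e-05, and the plates of both sides overlapped in each. Cacna1h, Cdkn1a and Pla2g7 overlap an exon on the other strand, and the use of strand in counting is not given in the sources used here.

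Pmch met the same rule through 3 cells. Pmch encodes melanin-concentrating hormone, the peptide of the neighbouring MCH neurons. It averaged 1835 ± 3905 CPM in the Pth2 type against 251 ± 233 CPM in the others, but its median was 189 CPM against 200 CPM and only 10 of 19 plates were higher (log2 fold change 1.62 ± 0.37, edgeR adjusted p = 0.000884). The 3 members with over 1% of UMIs in Pmch, on replicates 3, 10 and 16, had 5.96%, 11.9% and 7.54%, and 0 such cells were assigned to the other types. These 3 cells had 6.91%, 1.76% and 6.00% of UMIs in Hcrt. They held 218482, 118729 and 147770 UMIs, against a median of 59436.5 over all members, and whether such wells held more than 1 cell was not tested. They had 0 Pth2 UMIs each, and 1, 7 and 50 Nts UMIs. Without them the log2 fold change was 0.08 (adjusted p = 0.595), so the difference in Pmch rests on these cells.

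**Figure D4:**
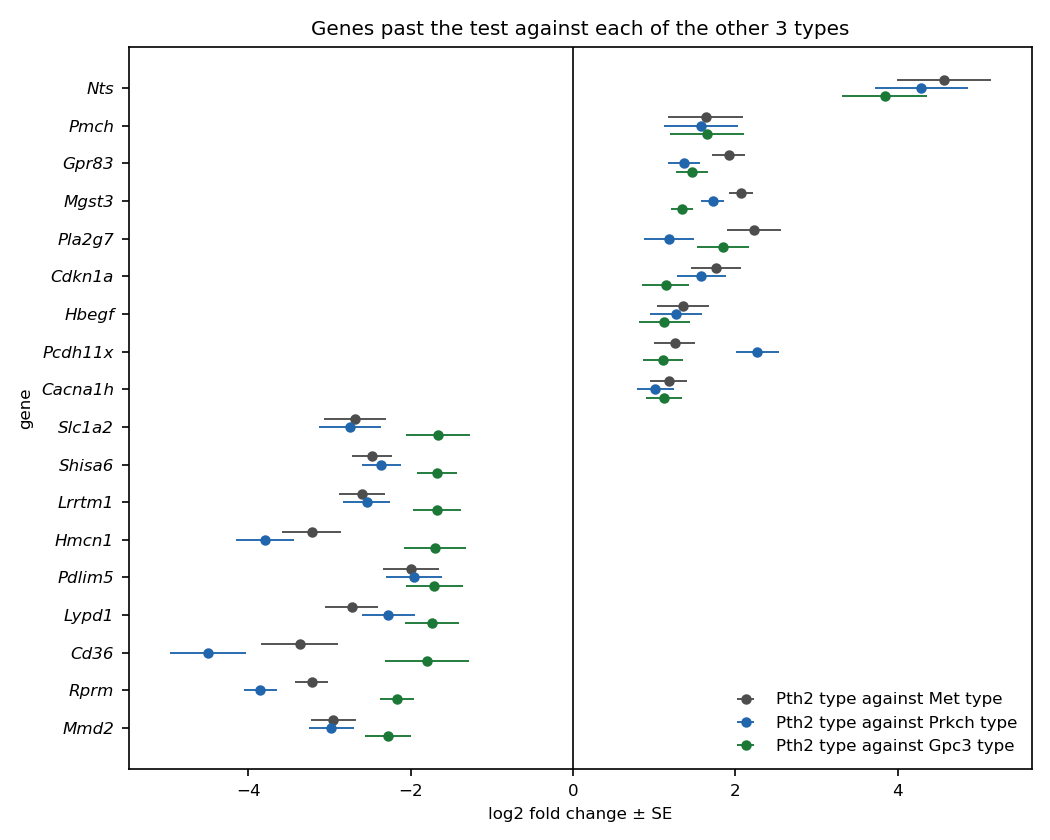
Log2 fold change ± SE of the Pth2 type against the Met, Prkch and Gpc3 types for the 9 genes higher than each and 9 of the 29 genes lower than each by at least 1. Nts lies at 3.84 to 4.57, and in all 9 lower genes the change is smallest against the Gpc3 type.

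In the other direction 29 genes were lower than each other type by at least 1 on the log2 scale, and 9 of the 10 with the largest smallest difference are named. Rprm (chr2:54084093-54085552, minus strand), a gene linked to cell cycle arrest, had 0, 9.50 and 24.3 CPM at the lowest, median and highest plate in the Pth2 type against 63.9, 102.2 and 130 CPM in the others. The plates did not overlap, and all 19 were below every other type (log2 fold change -3.08 ± 0.19, edgeR adjusted p = 1.55e-25). Slc1a2, a glutamate transporter that is strongest in astrocytes, averaged 3.08 ± 2.98 CPM in the Pth2 type against 16.5 ± 7.74 CPM (-2.37 ± 0.34).

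The remaining 7 include proteins of the synapse and of fatty acid uptake. Lrrtm1, a postsynaptic partner of neurexins, averaged 6.14 ± 4.90 CPM in the Pth2 type against 31.8 ± 7.94 CPM, and Shisa6, an auxiliary protein of AMPA receptors, 11.4 ± 8.86 CPM against 51.9 ± 12.8 CPM. Lypd1, which binds nicotinic receptors, averaged 8.92 ± 12.7 CPM against 45.5 ± 17.1 CPM, with 1 plate of the Pth2 type higher than the mean of the others. Cd36, a carrier of fatty acids, averaged 1.76 ± 4.06 CPM against 22.8 ± 10.6 CPM. Mmd2, Hmcn1, a large matrix protein, and Pdlim5 averaged 5.12, 2.79 and 5.46 CPM in the Pth2 type against 35.1, 25.05 and 20.03 CPM. Their log2 fold changes against the mean lay between -3.22 for Cd36 and -1.89 for Pdlim5, and the edgeR adjusted p was at most 5.17e-07.

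The opioid partners of orexin, Pdyn and Penk, were lower against the mean of the other types, and neither was lower than each type. Pdyn, the precursor of dynorphin, had 621, 824 and 966 CPM at the lowest, median and highest plate in the Pth2 type against 885, 1158 and 1455 CPM in the others. All 19 plates were lower, with some overlap (log2 fold change -0.48 ± 0.05, edgeR adjusted p = 6.48e-12), and against the Gpc3 type alone it missed the threshold (-0.18, adjusted p = 0.0714). Penk, the enkephalin precursor, averaged 50.9 ± 24.8 CPM against 126 ± 43.3 CPM (-1.14 ± 0.20, adjusted p = 1.63e-05). Nucb2, the precursor of nesfatin, averaged 164 ± 37.1 CPM against 135 ± 20.5 CPM (0.34 ± 0.08, adjusted p = 0.00159), and it no longer passed with types assigned at equal depth (0.19, adjusted p = 0.220) or without cells with a lead under 0.5 (0.25, adjusted p = 0.106). Of the 5 tested orexin and opioid co-transmitters 1 was higher and 2 were lower (median -0.09), beside 8.58% higher and 6.71% lower of all genes.

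Of 9 other neuropeptides and growth factors that passed the filter 4 were higher and 1 was lower (median 0.24). The higher ones were Bdnf, Nrg1, Nts, which the label of the type names, and Pmch, whose difference rests on 3 cells. Of all genes tested, 8.58% were higher and 6.71% lower. Bdnf, the neurotrophin, averaged 203 ± 60.1 CPM against 115.6 ± 39.9 CPM with 18 of 19 plates higher (1.297 ± 0.17, edgeR adjusted p = 1.53e-08), and its log2 fold change against the Gpc3 type was -0.12 (adjusted p = 0.859). Nrg1, a ligand of ERBB receptors, averaged 60.5 ± 15.2 CPM against 34.5 ± 7.32 CPM and passed against each type. Gal, the galanin gene, averaged 72.7 ± 51.1 CPM against 111.9 ± 28.8 CPM, lower on 17 of 19 plates (adjusted p = 0.0337).

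Of 16 tested granins and peptide-processing genes 3 were higher and 2 lower (median -0.03), beside 8.58% higher and 6.71% lower of all genes. Scg2, a granin of dense-core vesicles, had 22737, 27136 and 31801 CPM at the lowest, median and highest plate in the Pth2 type against 27206, 33802 and 41537 CPM, lower on 19 of 19 plates (-0.28 ± 0.04, edgeR adjusted p = 3.55e-08). Scg3, another granin, averaged 317 ± 49.2 CPM against 433 ± 67.3 CPM. Pam, the enzyme that amidates peptides, averaged 660 ± 193 CPM against 419 ± 110.6 CPM, higher on 19 of 19 plates (0.71 ± 0.07, adjusted p = 5.94e-13). Vgf, a secreted neuropeptide precursor, averaged 804 ± 162 CPM against 639 ± 123 CPM, and its log2 fold change against the Gpc3 type was -0.07 (adjusted p = 0.823).

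The machinery of fast transmission showed a single higher gene, Gad2, beside 3 lower genes of 10 tested (median -0.14). Of all genes tested, 8.58% were higher and 6.71% lower. Gad2, which makes GABA, had 14.7, 46.0 and 75.2 CPM in the Pth2 type against 1.18, 13.7 and 33.9 CPM, higher on 17 of 19 plates (log2 fold change 2.105 ± 0.37, edgeR adjusted p = 1.4e-05). The plates overlapped, and against the Gpc3 type the value was 0.87 ± 0.46 (adjusted p = 0.359). Gad1, the other GABA enzyme, averaged 13.9 ± 19.7 CPM against 26.6 ± 9.53 CPM (-1.05 ± 0.43, adjusted p = 0.0997). Slc32a1, the vesicular GABA transporter, had 11 UMIs in all members together. Slc17a6, the vesicular glutamate transporter, had a UMI in 88.8% of members and averaged 103.9 ± 21.9 CPM against 142 ± 22.1 CPM, lower on 18 of 19 plates (-0.40 ± 0.09, adjusted p = 0.000277).

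Genes of monoamine and acetylcholine signalling were few. Of the 5 tested for synthesis and breakdown 3 were higher (median 0.39), beside 8.58% of all genes. Th, tyrosine hydroxylase, averaged 33.5 ± 26.0 CPM against 17.4 ± 11.05 CPM with 11 of 19 plates higher (1.20 ± 0.27, edgeR adjusted p = 0.000329), and against the Gpc3 type it missed the threshold (adjusted p = 0.79). With the other 3 types summed into 1 library per plate Th did not pass either (0.87, adjusted p = 0.0853). Ache, which degrades acetylcholine, averaged 328 ± 62.0 CPM in the Pth2 type against 256 ± 42.6 CPM. Among receptors the serotonin receptor Htr2c had 0, 14.5 and 33.0 CPM against 38.2, 60.2 and 106.5 CPM, with no overlap (-1.99 ± 0.20, adjusted p = 1.61e-13). The noradrenaline receptors Adra1b and Adra2a averaged 37.7 ± 9.71 and 63.4 ± 21.8 CPM in the Pth2 type against 21.1 ± 7.66 and 40.8 ± 13.3 CPM, and of these Adra2a alone passed against each type.

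Among 11 tested neuropeptide receptors 2 were higher and 3 lower (median -0.13), beside 8.58% higher and 6.71% lower of all genes. Oprk1 (chr1:5588466-5606131, plus strand), the dynorphin receptor, had 0, 15.1 and 50.4 CPM at the lowest, median and highest plate in the Pth2 type against 62.9, 91.2 and 137 CPM. The plates did not overlap and 19 of 19 were lower (log2 fold change -2.20 ± 0.19, edgeR adjusted p = 1.35e-15). Crhr2, a receptor of urocortins, had 7.41, 22.1 and 43.9 CPM against 44.0, 54.9 and 70.1 CPM, without overlap (-1.14 ± 0.15, adjusted p = 2.51e-09). Cckar, the third lower gene, missed the threshold without the filter on low counts (edgeR adjusted p = 0.103) and without cells with a lead under 0.5 (adjusted p = 0.156). Avpr1a, a vasopressin receptor, averaged 73.1 ± 20.6 CPM against 49.2 ± 12.6 CPM (0.75 ± 0.13), with a value of 0.05 against the Gpc3 type. Ntsr1, the neurotensin receptor, averaged 12.7 ± 6.14 CPM against 17.6 ± 6.23 CPM (-0.39 ± 0.23, adjusted p = 0.270). Of the receptors of Pth2 and its relatives none passed the filter: Pth2r had 3 UMIs in members and 5 in the other types, and Pth1r 27 and 22.

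Of 16 glutamate receptor genes 1 was higher and 5 were lower (median -0.37), beside 8.58% higher and 6.71% lower of all genes. Gria1 and Gria2, subunits of AMPA receptors, averaged 88.2 ± 22.002 and 138 ± 40.3 CPM in the Pth2 type against 167 ± 32.5 and 192 ± 29.3 CPM, and Grin3a, an NMDA receptor subunit, 21.9 ± 11.5 CPM against 48.9 ± 10.4 CPM. Each of the 3 was lower than every other type. Grik1, a kainate receptor subunit, averaged 32.6 ± 11.2 CPM against 11.3 ± 4.66 CPM (1.93 ± 0.23, edgeR adjusted p = 1.04e-10), and against the Gpc3 type alone it missed the threshold (adjusted p = 0.0898). Of 11 GABA and glycine receptors 2 were lower, Gabra2 (-0.33) and Gabra4 (-1.06), and 9 did not pass. Neither of the 2 was lower than each type. Without replicate 10 Gabra4 missed the threshold (-0.93, edgeR adjusted p = 0.0545), and without the filter on low counts Gabra2 did (adjusted p = 0.0606).

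Of 22 potassium channel genes 2 were higher and 9 lower (median -0.21). Kcnk2, a leak channel opened by stretch, averaged 3.71 ± 2.95 CPM against 17.03 ± 4.80 CPM (-2.10 ± 0.29, edgeR adjusted p = 9.98e-09), lower than each type. Kcnip1 and Kcnip2, partners of A-type channels, averaged 27.8 ± 15.4 and 11.8 ± 7.58 CPM in the Pth2 type against 55.4 ± 9.84 and 31.2 ± 8.24 CPM, and neither passed against the Gpc3 type. Kcnma1, the large-conductance calcium-activated channel, averaged 106.8 ± 16.8 CPM against 72.2 ± 14.8 CPM, higher on 19 of 19 plates (0.61 ± 0.10, adjusted p = 1.31e-06). Of 28 sodium, calcium, HCN and TRP channel genes 3 were higher and 1 lower (median -0.08), beside 8.58% higher and 6.71% lower of all genes tested, so these counts do not set the list apart. Among the higher ones Scn9a, a sodium channel, averaged 175 ± 40.8 CPM against 136 ± 23.6 CPM. Cacna2d3, a calcium channel subunit, was higher and missed the threshold without cells with a lead under 0.5 (edgeR adjusted p = 0.0579), and the lower gene, Cacng4, did so without the filter on low counts (adjusted p = 0.0860).

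Calcium-binding proteins went both ways, with 4 higher and 4 lower of 10 (median -0.12), beside 8.58% higher and 6.71% lower of all genes. Calb1, calbindin (chr4:15881264-15908064, plus strand), had 562, 729 and 983 CPM in the Pth2 type against 1190, 1346 and 1686 CPM, with no overlap (-0.78 ± 0.04, edgeR adjusted p = 7.64e-27). Calb2, calretinin (chr8:110137502-110168210, minus strand), had 11.03, 78.4 and 209 CPM against 277, 424 and 614 CPM, also without overlap (-2.10 ± 0.13, adjusted p = 4.78e-19). Both were lower than each type, and Calb2 had a log2 fold change of -3.01 against the Prkch type and -0.78 against the Gpc3 type. Ncald, neurocalcin, averaged 1496 ± 151 CPM against 1240 ± 99.9 CPM, higher on 19 of 19 plates (0.30 ± 0.03).

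Of 28 synaptic vesicle genes 6 were higher and 5 lower (median 0.03), beside 8.58% higher and 6.71% lower of all genes. The lowest fold change was that of Synpr. Rab3b (chr4:108879063-108943324, plus strand), a vesicle GTPase, had 67.9, 219 and 341 CPM in the Pth2 type against 365, 511 and 609 CPM, and every plate was below every other type (-1.32 ± 0.09, edgeR adjusted p = 1.2e-17). Synpr, synaptoporin, averaged 7.54 ± 7.16 CPM against 39.3 ± 12.9 CPM, and Syt1, the calcium sensor of release, 120 ± 37.1 CPM against 192 ± 34.4 CPM. Snap25, a SNARE protein, averaged 782 ± 88.0 CPM against 615 ± 71.0 CPM, higher on 19 of 19 plates (0.39 ± 0.04, adjusted p = 1.96e-12).

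Genes of intermediate filaments and the axonal cytoskeleton were higher in 18 of 26 tested cases, and the other 8 did not pass (median 0.29), beside 8.58% of all genes tested. Of the 18, 10 were higher than each other type, beside 1.62% of all genes. The list was chosen with earlier results of these data known, and the panel gene Synm is a filament gene too, so these counts are a description. Uchl1, an abundant neuronal ubiquitin hydrolase, had 2269, 3500 and 5314 CPM at the lowest, median and highest plate in the Pth2 type against 1775, 2806 and 4366 CPM. The ranges overlapped because plates differ, while within plates 19 of 19 were above every other type (log2 fold change 0.33 ± 0.02, edgeR adjusted p = 4.42e-21). Stmn4, a stathmin that binds tubulin, averaged 231 ± 42.3 CPM against 142 ± 23.4 CPM (0.75 ± 0.07, adjusted p = 1.61e-15).

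Tubulins and neurofilaments followed. Tuba1a and Tubb3 averaged 1834 ± 249 and 884 ± 181 CPM in the Pth2 type against 1464 ± 129 and 690 ± 142 CPM, with values uncertain because tubulin genes are close copies. Nefh, the heavy neurofilament, averaged 91.2 ± 31.9 CPM against 47.6 ± 10.1 CPM (0.98 ± 0.14, edgeR adjusted p = 1.15e-08). Tubb6, singled out after its value was seen, had the largest fold change of the list at 2.69 ± 0.32 and 17.8 ± 8.16 CPM against 4.66 ± 3.34 CPM, and it did not pass against the Gpc3 type (adjusted p = 0.251).

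Relatives of the panel genes Hspb1 and S100a11 were looked at in the same way. Of 13 tested heat shock genes and chaperones 3 were higher and 10 did not pass (median 0.06), beside 8.58% higher of all genes. Hsp90aa1 (0.21 ± 0.03) and Hspa8 (0.20 ± 0.03) were 2 of them. The third, Dnajb1 (0.23 ± 0.08, edgeR adjusted p = 0.045), lost its call on leaving out any of 13 single plates (adjusted p up to 0.141) and under 10 of 13 other alternatives (adjusted p up to 0.703), and in the barcode set Q6 its value was -0.04. Of 4 tested S100 and annexin genes 1 was higher, S100a10, a partner of annexin, at 350 ± 59.3 CPM against 226 ± 37.7 CPM (0.69 ± 0.06, edgeR adjusted p = 8.02e-17). Klf6, a factor linked to axon growth, was the only higher gene of 8 tested for axon injury and regeneration, at 176 ± 41.4 CPM against 107.7 ± 22.2 CPM (0.76 ± 0.09, adjusted p = 3.49e-11), and Gadd45a was lower (adjusted p = 0.0461). The call of Gadd45a was lost on leaving out any of 12 single plates (adjusted p up to 0.0989). Immediate early genes, which respond to activity and to dissociation, were lower in 3 of 10, and the other 7 did not pass (median -0.33), beside 6.71% lower of all genes. Of the 3, Egr1 (-0.49 ± 0.17, edgeR adjusted p = 0.0309) lost its call on leaving out any of 6 single plates (adjusted p up to 0.0654) and under 4 of 13 other alternatives (adjusted p up to 0.256). Junb (-0.77 ± 0.22, adjusted p = 0.00639) had a value of 0.0095 in the barcode set Q7. Fos had 221, 275 and 468 CPM in the Pth2 type against 336, 479 and 657 CPM, lower on 19 of 19 plates (-0.64 ± 0.09, adjusted p = 5.8e-08), and the value against the Gpc3 type was -0.23 (adjusted p = 0.282).

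Of 29 tested axon guidance and adhesion genes 15 were lower and 5 higher (median -0.50), beside 6.71% lower and 8.58% higher of all genes. Epha5, an ephrin receptor, averaged 77.1 ± 25.2 CPM against 151 ± 21.5 CPM (-0.94 ± 0.10, edgeR adjusted p = 2.2e-13), Efnb3, an ephrin, 79.1 ± 25.6 CPM against 135 ± 43.9 CPM, and Ntm, neurotrimin, 36.0 ± 23.6 CPM against 89.2 ± 16.8 CPM. Ncam1, a neural adhesion molecule, averaged 390 ± 65.2 CPM against 290 ± 37.4 CPM, higher on 19 of 19 plates (0.46 ± 0.05, adjusted p = 4.71e-12). Of 18 cerebellins, pentraxins and other synapse organisers 3 were higher and 7 lower (median -0.29). Cbln1, the relative of the panel gene Cbln2, averaged 170 ± 32.0 CPM against 245 ± 39.1 CPM, lower on 19 of 19 plates (-0.49 ± 0.07, adjusted p = 1.48e-08). Igsf21, a neurexin partner at inhibitory synapses, averaged 2.62 ± 2.16 CPM against 21.7 ± 5.79 CPM, and Nptx2, a pentraxin that gathers AMPA receptors, 332 ± 77.7 CPM against 255 ± 45.3 CPM.

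Of 22 transcription factors known from the hypothalamus 5 were higher and 6 lower (median -0.04), beside 8.58% higher and 6.71% lower of all genes. Lhx2, a LIM homeobox factor, had 38.4, 66.5 and 99.2 CPM in the Pth2 type against 10.9, 35.6 and 54.7 CPM, higher on 18 of 19 plates and than each type (1.10 ± 0.16, edgeR adjusted p = 4.58e-08). Foxp2 averaged 8.47 ± 7.83 CPM against 43.7 ± 8.24 CPM (-2.17 ± 0.26, adjusted p = 6.79e-11), and Bcl11a 10.5 ± 6.74 CPM against 22.3 ± 5.67 CPM, both lower than each type. Sox2 averaged 2.82 ± 4.35 CPM against 14.7 ± 4.92 CPM, with no pass against the Gpc3 type. Rorb, a nuclear receptor of the list of metabolic and steroid receptors, averaged 51.7 ± 22.7 CPM against 117.1 ± 36.6 CPM (-1.17 ± 0.12), and of that list of 9 it was the lower gene and Thra the higher one (0.25), whose edgeR adjusted p was 0.0503 without replicate 1. Of 11 extracellular matrix genes 2 were higher, Spock1 (0.91) and Spock3 (0.94), and 3 lower, with Igfbp3 at -0.76 and Igfbp5 at -2.28.

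**Figure D5:**
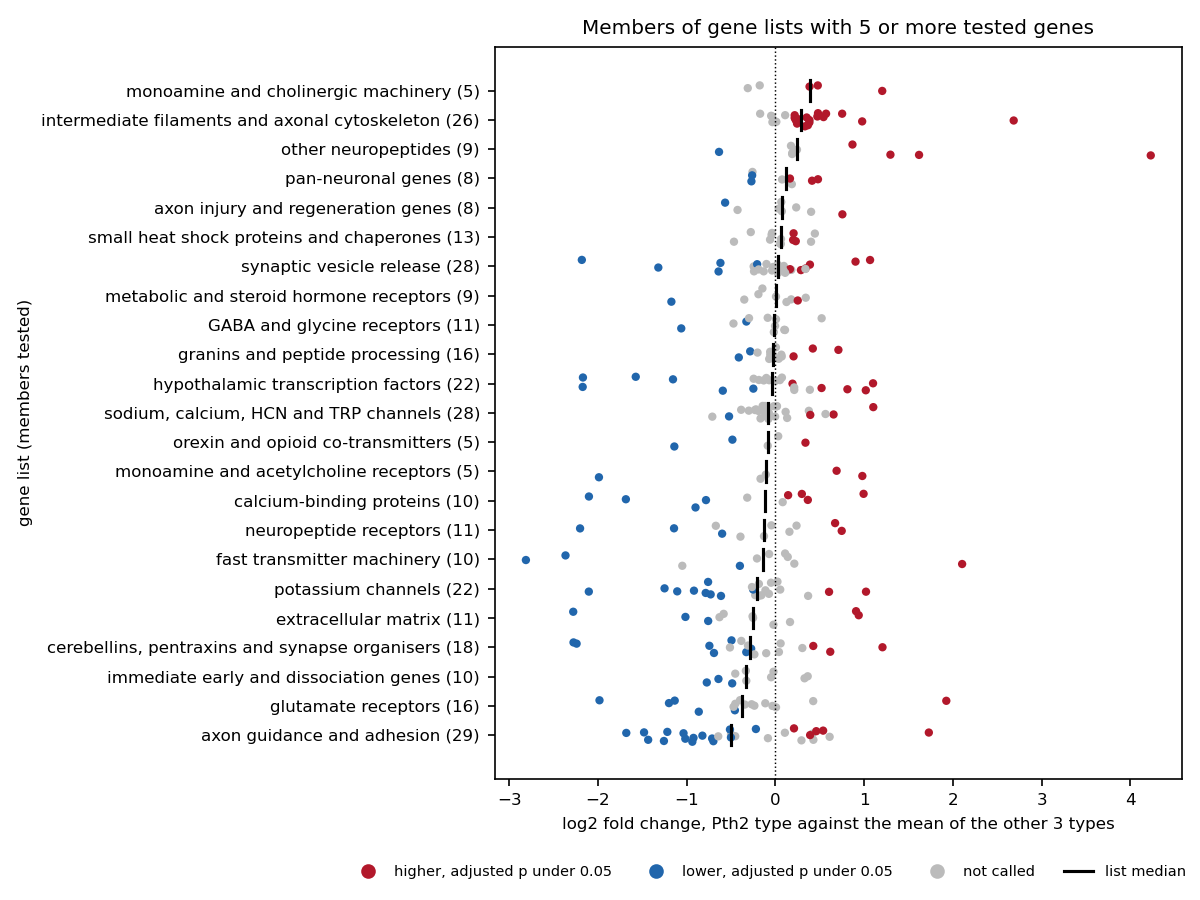
Log2 fold change of the Pth2 type against the mean of the other 3 types for tested members of each gene list with at least 5 of them, coloured by the edgeR call, with the list median as a bar. The axonal cytoskeleton has 18 higher genes of 26, and axon guidance and adhesion 5 higher and 15 lower of 29.

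Many list genes were too low to test, 475 in all, and 14 of these stood apart by at least 4-fold in pooled CPM with at least 100 UMIs, 13 of which are named. They were chosen after their values were seen and have no test. The 4-fold is against the other 3 types pooled, and several lay closer to the Gpc3 type. Scgn, secretagogin, a calcium sensor, had 180 UMIs in 57 members on 19 plates, against 19 UMIs in 12 cells of the other types. Hcrtr2, an orexin receptor, had 159 UMIs in 55 members against 75 UMIs in 33 other cells. Gfra1, a GDNF receptor, had 262 UMIs against 96, and Col11a1, a collagen, 273 against 86. Adcyap1, the PACAP gene, had 5.98 CPM over all members against 0.939 CPM over the other cells. Prph, the filament protein peripherin, had 122 UMIs against 35, but in 13 members with up to 38 in a cell. Of the UMIs in the other types, the Gpc3 type held 14 of 19 for Scgn, 51 of 75 for Hcrtr2 and 72 of 96 for Gfra1. It held 38 of 86 for Col11a1, 28 of 35 for Adcyap1 and 19 of 35 for Prph. On the lower side Qrfp, an RFamide peptide gene, had 2 UMIs in members against 509 in the other types, of which 264 were in the Prkch type. Sst, somatostatin, had 9 UMIs in members and 0.533 CPM, against 3.14 CPM in the other cells, with 13 UMIs in the Gpc3 type. The others on the lower side were Caln1, Npy4r, Slitrk2, St18 and Syt6. They had 27, 9, 33, 17 and 13 UMIs in members against 30, 33, 68, 51 and 19 in the Gpc3 type alone.

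Markers of other cells were low in most sums. The 8 pan-neuronal genes summed to between 2277 and 3579 CPM in the Pth2 type, 2493 to 3847 in the Met type, 2394 to 3965 in the Prkch type and 2356 to 3907 CPM in the Gpc3 type. The 10 oligodendrocyte markers had a median of 57.7 CPM in the Pth2 type, 43.4 in the Met type, 69.4 in the Prkch type and 51.6 CPM in the Gpc3 type, with single sums up to 4778 CPM, and the 3 tested markers did not pass (median log2 fold change 0.72). The astrocyte list had a median of 0.96 CPM in the Pth2 type, with Slc7a10 at 0, and 2.85 CPM or less in the other types. Of the ependymal list Rsph1 was tested and higher (0.43 ± 0.16, edgeR adjusted p = 0.046), at 51.3 ± 23.4 CPM against 37.8 ± 8.14 CPM, a call lost on leaving out any of 10 single plates (adjusted p up to 0.130). A gate for neurons, with UMIs in at least 5 of 8 pan-neuronal genes and more of them than of each other cell type's markers, left out 9 members and 18 other cells, and 6 of these members had more oligodendrocyte than pan-neuronal UMIs. Without those cells the named genes kept their directions, and Gadd45a (adjusted p = 0.0755) and Rsph1 (adjusted p = 0.0741) no longer passed.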

How the data were processed

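The authors deposited a table of raw counts by gene and well for 19 plates, and a table of wells with the ERCC percent of each. Per the submitters' processing notes, bcl2fastq 2.20, cutadapt 2.1.0, STAR 2.7.5c, STARsolo 2.7.5c, Seurat 2.3.4 and R 3.4.3 were used with the build GRCm38. The annotation, strand use and whether UMIs were collapsed are not given in the sources used here. Printed coordinates are those of GENCODE M21, in which 99.7% of the gene identifiers with a count have an entry.

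Orexin neurons and their types were chosen by the Hcrt gate and the panel scores described above, and doublets were not searched for in these hand-filled wells. The members, panels and 32 gene lists (816 genes) were chosen with earlier results of these data known. Counts were summed per plate and type where a type had at least 3 cells, which gave 19 sums per type with 486559 to 1848286 UMIs in the Pth2 type. The sums were tested by the robust quasi-likelihood test of edgeR 4.0.16 in R 4.3.3, with TMM scaling, the filterByExpr filter and a term for the plate. The 20 panel genes were left out of the tests. P-values were adjusted by Benjamini-Hochberg over 7695 genes, and 0.05 was the threshold. An SE restates the test: it is the log2 fold change over the root of its F statistic, without sign. TMM enters the fold changes but not the CPM, so a fold change need not equal the ratio of the printed CPM. Plate medians were compared by a sign-flip permutation test (two-sided, 100000 permutations). Members and other cells of a plate share 1 library, so the plate pairs them by design and the block is part of the test. The 19 plates come from 7 mice, which plate from which is not labelled, and p-values over plates may therefore be too small. The 104 blank wells held a median of 172 UMIs. Wells of a barcode set carry the same barcodes on each of its 4 or 5 plates, 384 barcodes in all.

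Named genes were, outside the panels and without predicted and mitochondrial genes, those called against each type in 1 direction with a log2 fold change of at least 1 and 20 CPM (up to 14 higher and 10 lower), up to 4 called members of each list with the lowest p, and Hcrt, Pdyn, Nts, Slc17a6, Pth1r, Pth2r, Ntsr1 and Ntsr2. This gave 98 tested genes, of which 25 overlap an exon on the other strand. A few genes that met these rules are not reported here. For cells of unequal depth, each cell was thinned to 21000 UMIs, which left out 14 members, 31 cells of the Met type, 32 of the Prkch type and 18 of the Gpc3 type. Intervals are exact (Clopper-Pearson, 95%), floors are 3 counts, and both cover counting error only. On counts simulated from these sums, the test of the Pth2 type against the mean of the other types recovered 94% of genes changed 2-fold and 100% of genes changed 4-fold among 7514 genes, with 0.0548% of unchanged genes called. The simulated sums were independent, had no plate or mouse effect, and took the types as given. The simulation therefore cannot show how plates that share mice, or types assigned by expression, affect the p-values.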

Additional observations from a re-analysis of the deposited data

How the results depend on the processing

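Of 98 named genes, 83 kept their call under every alternative that gave them a value, which was 77 genes with types assigned after thinning, 91 without cells with a lead under 0.5 and at least 97 elsewhere. Of the 98, 0 reversed, and 84 of 3105 comparisons changed a call. The genes that lost their call under at least 1 alternative with all plates were Pmch, Gabra2, Gadd45a, Rsph1, Egr1, Thra, Th, Cckar, Nucb2, Thy1, Dnajb1, Cacna2d3 and Cacng4, Gabra4 lost it without replicate 10, and Hcrt gained one without the filter on low counts; the cause was not tested. Where cells with a lead under 0.5 were left out, 319 genes were lower against the mean, 53 higher than each and 71 lower than each, the share was 31.2% and the Hcrt difference 0.681 percentage points. With types assigned after thinning, 326 genes were higher and 276 lower against the mean, 58 higher than each and 62 lower than each, and the Hcrt difference was 0.429; fewer UMIs entered that fit. With no replicate block (plate left out of the pairing), 72 genes were higher than each, and 459 were higher and 428 lower against the mean. Leaving out each plate in turn gave 577 to 670 genes higher and 467 to 526 lower against the mean and 119 to 143 lower than each, and the count higher than each stayed within 1.5 times its value. It also gave differences of 21989 to 24417 UMIs and 149.5 to 169.9 genes per thinned cell, a share of 23.1 to 24.6% and a Hcrt difference of 0.235 to 0.392. DESeq2 1.42.0 shared 626 of 660 higher and 516 of 516 lower calls. Within the barcode sets, 93 named genes had a value in all 4 and 5 in 3 of them, and 95 had 1 direction in all sets with a value, the exceptions being Dnajb1, Hcrt and Junb. Alternatives without cells high in Pmch, and UMIs and genes per cell with types assigned after thinning, were added after seeing the data. Depth limits the low genes, of which 475 list members could not be tested.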
